A study of Rattus norvegicus with 24 samples.

Results

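The 9 microglia and tissue macrophage genes Cx3cr1, P2ry12, Tmem119, Csf1r, Aif1, C1qa, C1qb, Trem2 and C3ar1 were followed through brain, spleen, thymus and liver of Sprague-Dawley rats aged 7 months. They were taken by name from a table of 32883 genes, and all 9 were found, each as a single row. Messenger RNA was sequenced in 24 libraries, 3 from exposed rats (called SAM, after the label SAM-exposed) and 3 from sham-exposed rats (Sham) in each of 4 tissues. The series title speaks of PCB exposure, meaning polychlorinated biphenyls, and the labels give no dose, duration or sex. Brain libraries carry the numbers 1, 2 and 3 (SAM) and 13, 15 and 16 (Sham), and liver libraries 1, 2 and 3 and 13, 14 and 15. Spleen and thymus libraries carry 1, 3 and 5 (SAM) and 14, 15 and 17 (Sham). Nothing in the labels says whether libraries of one group came from separate animals, so p-values measure the spread between these libraries, which may in part be technical. The brain region is not given.

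Microglia are the resident macrophages of the brain, and spleen, thymus and liver hold macrophages of their own, in liver the Kupffer cells. Tissue macrophages depend on signalling through the receptor CSF1R for survival. Microglia sense neurons and damage through surface receptors, and supply much of the complement C1q of the brain, which tags material for removal. Cx3cr1 encodes the receptor for the neuronal chemokine fractalkine, P2ry12 a receptor for ADP that steers microglial processes, and Tmem119 a membrane protein used to tell microglia from other macrophages in the brain. Csf1r encodes the receptor for CSF1 and IL-34, and Aif1 the actin-binding protein IBA1. C1qa and C1qb encode chains of C1q, Trem2 a lipid-sensing receptor that signals through TYROBP, and C3ar1 the receptor for the complement fragment C3a.

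The smallest library held 12.9 M (mega) counts and the largest 20.1 M. Levels are CPM, counts relative to the library total after TMM scaling, a method that sets the libraries of a tissue to a common level. Several libraries stood apart from their group. In brain, SAM 1 and SAM 2 differed from the Sham mean by 2.97 and 2.66 log2 units for 11 tested genes of inhibitory and olfactory bulb neurons, and by -1.85 and -1.29 for 12 genes of forebrain excitatory neurons. SAM 3 differed from it by -0.02 and -0.09. In liver, mitochondrially encoded genes took 17.8% of the counts of SAM 1 and 5.71 to 8.07% of those of the remaining 5 libraries. In brain the 9 genes and the gene lists are given also with SAM 3 alone against Sham, and in liver the 9 genes without SAM 1.

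The levels in Sham rats showed where each gene was strongest. Over the 12 Sham libraries, 82.3% of the 17204 genes tested differed between brain and spleen, so a difference between tissues was the rule for genes at large (edgeR quasi-likelihood test, Benjamini-Hochberg adjusted p under 0.05, here as in all tests across genes). In that comparison 8 of the 9 genes were called, 2 higher in brain and 6 higher in spleen. Between brain and thymus 8 were called, 5 higher in brain and 3 higher in thymus, with 82.4% of all genes called. In the first pair the call of C3ar1 was lost with RLE scaling, and in the second that of Csf1r with library totals alone. In bulk tissue, fewer macrophages and less of an RNA per macrophage cannot be told apart.

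Cx3cr1 and Trem2 were the pair called higher in brain against each of the other tissues. Cx3cr1 (ENSRNOG00000018509) averaged 14.7 ± 1.49 CPM in brain, 4.94 ± 0.22 in spleen, 4.07 ± 0.65 in thymus and 0.267 ± 0.21 in liver (SD, n = 3 each, 12 Sham libraries scaled together). Brain exceeded spleen by 1.58 ± 0.18 log2 units (SE), whereas spleen and thymus differed by 0.28 ± 0.18 and did not pass the test. Trem2 (ENSRNOG00000013578) averaged 10.6 ± 0.98 CPM in brain, 1.004 ± 0.35 in thymus, 0.296 ± 0.12 in spleen and 0.188 ± 0.23 in liver. Its brain libraries lay at 9.56 CPM or above and its highest library elsewhere at 1.32, and brain exceeded spleen by 5.08 ± 0.37 log2 units. Spleen and liver could not be ranked for Trem2, which had 3 to 11 counts per Sham spleen library and 0 to 3 per Sham liver library.

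The other genes used to mark microglia were not highest in brain alone. P2ry12 (ENSRNOG00000013902) averaged 8.02 ± 0.88 CPM in brain and 7.18 ± 0.98 in spleen, a difference of 0.16 ± 0.21 log2 units that did not pass the test. Its levels in thymus, 3.35 ± 0.42 CPM, and liver, 1.28 ± 0.68 CPM, followed in that order, each lower than the one before by the test. P2ry12 overlaps Med12l in the RefSeq annotation, and reads of the pair cannot be told apart if the counting ignored strand. Tmem119 (ENSRNOG00000000700) was highest in spleen, at 22.0 ± 3.28 CPM against 10.4 ± 3.23 in brain, a log2 difference of brain minus spleen of -1.08 ± 0.33. In thymus it averaged 2.89 ± 0.40 CPM and in liver 1.35 ± 1.52, a difference of 1.13 ± 0.52 log2 units that missed the threshold and passed it with RLE scaling (1.199). So Tmem119, a microglial marker within the brain, was at its highest level outside it here.

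The receptor, IBA1 and C1q genes were all highest in spleen. Csf1r (ENSRNOG00000018414) averaged 346 ± 14.97 CPM in spleen, 99.5 ± 50.1 in liver, 73.6 ± 5.58 in brain and 44.1 ± 4.78 in thymus. Aif1 (ENSRNOG00000000853) averaged 164 ± 28.2 CPM in spleen, 29.5 ± 10.04 in liver, 23.8 ± 2.0 in thymus and 10.4 ± 0.52 in brain. Neither Csf1r between liver and brain nor Aif1 between liver and thymus passed the test. C1qa (ENSRNOG00000012807) averaged 393 ± 117 CPM in spleen, 169 ± 75.9 in liver, 88.5 ± 7.68 in thymus and 32.7 ± 2.12 in brain. C1qb (ENSRNOG00000012749) averaged 319 ± 85.2, 125 ± 55.8, 62.9 ± 7.53 and 20.5 ± 1.48 CPM in the same order, and for both C1q genes each step of that order passed the test. Brain lay below spleen by -3.59 ± 0.35 log2 units for C1qa, -3.96 ± 0.35 for C1qb and -3.98 ± 0.21 for Aif1.

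C3ar1 (ENSRNOG00000009211) was low everywhere. It averaged 2.72 ± 2.12 CPM in liver, 1.75 ± 0.03 in spleen, 0.919 ± 0.09 in thymus and 0.917 ± 0.11 in brain, and no neighbours in that order differed by the test. Tissues further apart in it did: liver exceeded brain 2.95-fold and thymus 2.94-fold, and spleen exceeded brain 1.91-fold. Both liver calls were lost with library totals alone, and the spleen call with RLE scaling.

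Comparisons with liver depended on the scaling. The TMM factors were 0.430 to 0.457 in Sham liver and 1.18 to 1.48 in the other Sham tissues, so a liver value was raised against its raw share of the library. With library totals alone, the log2 difference of brain minus liver for Csf1r went from -0.43 to 1.02, and those of thymus minus liver turned from negative to positive for Csf1r (0.57), Aif1 (1.43), C1qa (0.82), C1qb (0.76) and C3ar1 (0.18). Spleen minus liver also turned for C3ar1, from -0.63 to 0.94. Of the 9 genes, 8 were called between brain and liver, 4 in each direction, where 81.3% of all genes were called. Spleen exceeded liver for all 7 genes called there (76.1% of genes), and between spleen and thymus 7 were called, 6 of them higher in spleen (62% of genes). Between thymus and liver 7 were called (77.1% of genes), a count that fell to 4 without Sham liver 15 and was 9 without Sham liver 13.

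**Figure D1:**
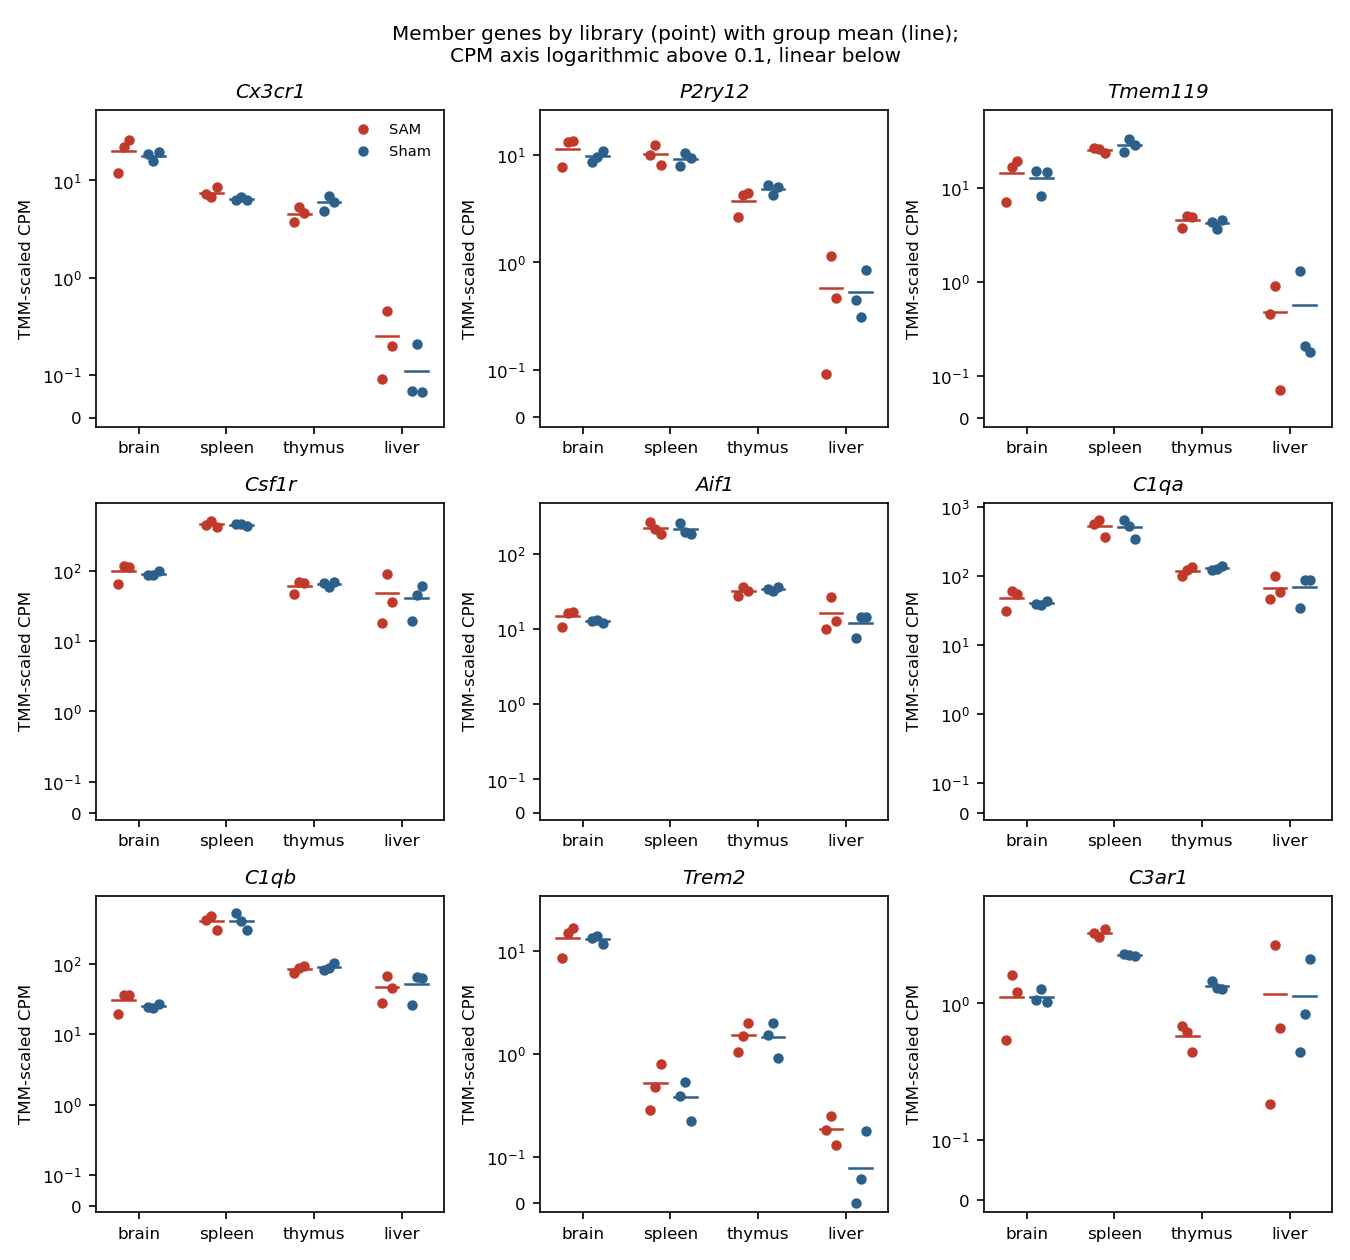
Level of each of the 9 genes in every library, in TMM-scaled CPM within each tissue on an axis that is logarithmic above 0.1 and linear below, with SAM in red, Sham in blue and a line at each group mean. Trem2 and Cx3cr1 are highest in brain, and Csf1r, Aif1, C1qa, C1qb and Tmem119 in spleen, with levels scaled tissue by tissue. In spleen every SAM library of C3ar1 and of Cx3cr1 lies above every Sham library (4.47% of all genes tested). In thymus every SAM library of C3ar1 lies below every Sham library (6.96%). None of these differences passed the test.

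**Figure D2:**
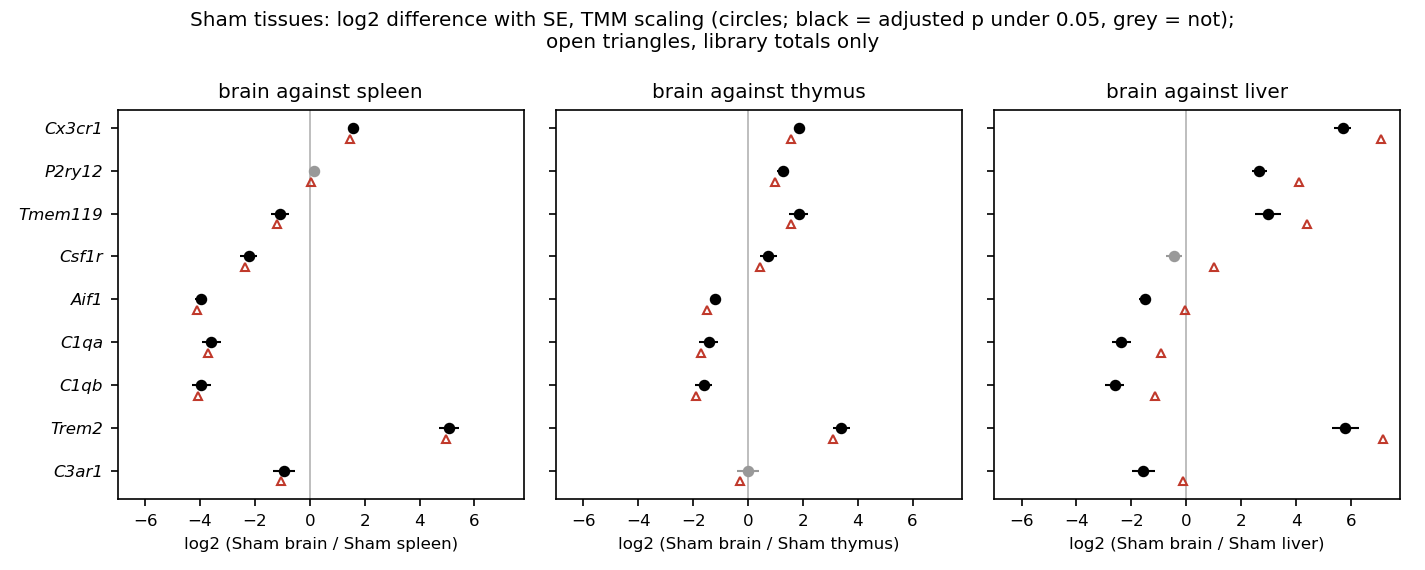
Log2 difference of Sham brain over Sham spleen, thymus and liver for each gene, with circles and SE bars for the TMM-scaled fit (black where the adjusted p is under 0.05, grey where it is not) and open triangles for library totals alone. Cx3cr1 and Trem2 lie to the right of 0 in all 3 panels, and in the liver panel the triangles lie to the right of the circles, so that Csf1r changes side.

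Ratios of counts between genes of one library need no scaling. For Cx3cr1, Trem2 and Aif1 against Csf1r they set brain on the same side of spleen as the levels did, but not for Tmem119. For P2ry12 they set brain above spleen, where the levels did not differ by the test. Cx3cr1 counts per Csf1r count were 0.186 to 0.230 in the 6 brain libraries, SAM and Sham together. They were 0.0691 to 0.120 in thymus, 0.0133 to 0.0207 in spleen and 0.00101 to 0.00562 in liver, so the tissues did not overlap. For Trem2 the ratio to Csf1r was 0.119 to 0.163 in brain, 0.0134 to 0.0343 in thymus, 5.22e-04 to 0.00197 in spleen and 0 to 0.0103 in liver. Aif1 counts per Csf1r count ran the other way, at 0.123 to 0.168 in brain and 0.425 to 0.608 in spleen. P2ry12 and Tmem119 had their highest ratios to Csf1r in brain, whereas the level of Tmem119 was highest in spleen. For P2ry12 the ratio was 0.102 to 0.123 in brain, 0.0564 to 0.0790 in thymus, 0.0175 to 0.0246 in spleen and 0.00515 to 0.0228 in liver. Tmem119 gave 0.0946 to 0.175 in brain, 0.0630 to 0.0801 in thymus, 0.0511 to 0.0704 in spleen and 0.00187 to 0.0684 in liver. Csf1r itself was highest in spleen. These ratios compare tissues, not the 2 genes with each other, since counts were not divided by transcript length.

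C1qa and C1qb ran together most closely of all pairs among the 9. Their log2 CPM correlated at r = 0.998 over the 24 libraries, which come from 4 tissues and share their library totals. C1qa counts per C1qb count were 1.47 to 1.66 in brain, 1.14 to 1.36 in spleen, 1.33 to 1.47 in thymus and 1.26 to 1.66 in liver. In the RefSeq annotation the genes C1qb, C1qc and C1qa lie side by side. At the other end, C1qb and Trem2 correlated at r = -0.785 over the same 24 libraries, with Trem2 highest in Sham brain and C1qb in Sham spleen. Within brain C1qb and Trem2 lay on the same side of the Sham mean in SAM 1, 2 and 3. They lay on opposite sides of it in Sham 13, 15 and 16. The upstream sequences of these 3 genes are printed because they include the pairs with the highest and the lowest r over the 24 libraries.

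Each line gives the 250 bases before the start of the gene from the RefSeq promoter table on GRCr8, 5′ to 3′ along the gene. Capitals mark GAGGAA, the PU box bound by the myeloid factor PU.1, and TGCTGA, a half-site of MAF factors, on either strand (as TTCCTC and TCAGCA when reversed). Neither motif overlaps the other in these windows.
C1qa, chr5:154419934-154420183, minus strand: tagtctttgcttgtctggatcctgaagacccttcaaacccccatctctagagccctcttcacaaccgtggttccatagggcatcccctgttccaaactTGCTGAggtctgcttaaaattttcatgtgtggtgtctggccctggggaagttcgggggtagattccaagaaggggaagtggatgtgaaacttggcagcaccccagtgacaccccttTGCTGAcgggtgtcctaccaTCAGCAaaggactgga
C1qb, chr5:154407828-154408077, minus strand: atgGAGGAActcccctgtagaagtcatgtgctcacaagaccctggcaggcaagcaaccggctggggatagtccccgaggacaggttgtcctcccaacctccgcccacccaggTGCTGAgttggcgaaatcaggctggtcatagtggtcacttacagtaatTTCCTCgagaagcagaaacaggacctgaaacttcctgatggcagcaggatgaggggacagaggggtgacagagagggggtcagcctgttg
Trem2, chr9:20151780-20152029, minus strand: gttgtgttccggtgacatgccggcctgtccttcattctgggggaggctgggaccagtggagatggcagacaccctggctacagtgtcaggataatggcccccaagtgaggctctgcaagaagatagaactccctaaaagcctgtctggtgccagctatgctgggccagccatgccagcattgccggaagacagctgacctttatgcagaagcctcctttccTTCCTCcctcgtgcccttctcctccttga

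C1qa held 3 matches to the MAF half-site and none to the PU box, C1qb 1 and 2, and Trem2 1 match to the PU box only. The table held 6 of the 9 genes, and of these the PU box occurred in 3, namely Csf1r, C1qb and Trem2, and the MAF half-site in 2, C1qa and C1qb. Over all 33469 windows of the table the shares were 23.3% and 15.1%. A match states only that the letters are present.

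In brain the question was whether these genes differed between exposed and sham rats, and no difference passed the test. edgeR called 0 of the 9 genes, 0 had an unadjusted p under 0.05, and DESeq2 also called 0. Over all 15126 genes tested edgeR called 0%, with 11.8% higher and 8.52% lower in SAM at an unadjusted p under 0.05. The log2 fold changes (SAM over Sham) were positive for 8 of the 9 genes, with a median of 0.17, against 51.4% positive and a median of 0.01 over all genes. The spread between the SAM libraries was wide: their coefficients of variation were 24.0 to 47.9%, against 4.94 to 31.2% in Sham.

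SAM 1 and SAM 2 each took one side of Sham in every member. SAM 1 lay below every Sham library for all 9 genes, a position that 38.4% of all tested genes took in that library. SAM 2 lay above every Sham library for all 9 (37.9% of genes), and SAM 3 for 8 of 9 (27.7% of genes), C3ar1 being the one that did not. Summed over the 9 genes, SAM 1 reached 162 CPM, SAM 2 295 and SAM 3 298, beside 220, 210 and 238 CPM for Sham 13, 15 and 16. Relative to the Sham mean, the median member stood at 0.708 times in SAM 1, at 1.32 times in SAM 2 and at 1.35 times in SAM 3. The groups overlapped for all 9 genes, while 23.8% of all tested genes did not overlap (11.6% above and 12.2% below Sham).

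Among the receptors that sense neurons, Cx3cr1 stood at 12.01, 21.9 and 26.1 CPM in SAM 1, 2 and 3, and at 18.6, 15.998 and 19.5 in Sham 13, 15 and 16. SAM 1 was the lowest and SAM 2 and SAM 3 the highest of the 6, and the log2 fold change was 0.14 ± 0.28 (SE; adjusted p = 0.771). P2ry12 stood at 7.83, 13.2 and 13.7 CPM in SAM and at 8.76, 9.76 and 10.9 in Sham. The fold change of P2ry12 was 0.23 ± 0.23 on the log2 scale (adjusted p = 0.548). Tmem119, whose function is little known, stood at 7.12, 16.8 and 19.2 CPM in SAM and at 15.1, 8.12 and 14.8 in Sham. Here one Sham library, number 15, lay almost as low as SAM 1, and the log2 fold change was 0.17 ± 0.41 (adjusted p = 0.815).

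Csf1r, the survival receptor, stood at 63.8, 114 and 113 CPM in SAM and at 86.3, 85.9 and 98.0 in Sham. Its log2 fold change of 0.11 ± 0.23 has a 95% interval from -0.43 to 0.65. Aif1, whose protein is the usual microglial stain, stood at 10.7, 16.5 and 17.2 CPM in SAM and at 12.9, 13.2 and 12.001 in Sham. The Sham libraries of Aif1 varied by 4.94%, the least of the 9 genes, and the log2 fold change was 0.22 ± 0.19 with an interval from -0.24 to 0.67.

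The C1q chains had the largest estimates. C1qa stood at 31.4, 60.1 and 54.0 CPM in SAM and at 39.3, 37.8 and 42.9 in Sham. C1qb stood at 19.7, 36.2 and 36.9 CPM in SAM and at 24.4, 23.6 and 27.1 in Sham. Again SAM 1 was lowest and the other SAM libraries highest. The log2 fold changes were 0.28 ± 0.23 for C1qa (adjusted p = 0.484) and 0.30 ± 0.24 for C1qb (adjusted p = 0.461), with an upper 95% limit of 1.79-fold and 1.83-fold.

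Trem2, which senses lipids, stood at 8.64, 14.9 and 16.7 CPM in SAM and at 13.3, 13.998 and 11.7 in Sham. SAM 1 was lowest again, and the log2 fold change was 0.04 ± 0.24 (adjusted p = 0.936). C3ar1, the C3a receptor, stood at 0.544, 1.61 and 1.22 CPM in SAM and at 1.06, 1.27 and 1.03 in Sham. Its log2 fold change was -0.01 ± 0.41, and the interval from -0.98 to 0.96 spans a halving and a doubling almost in full.

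**Figure D3:**
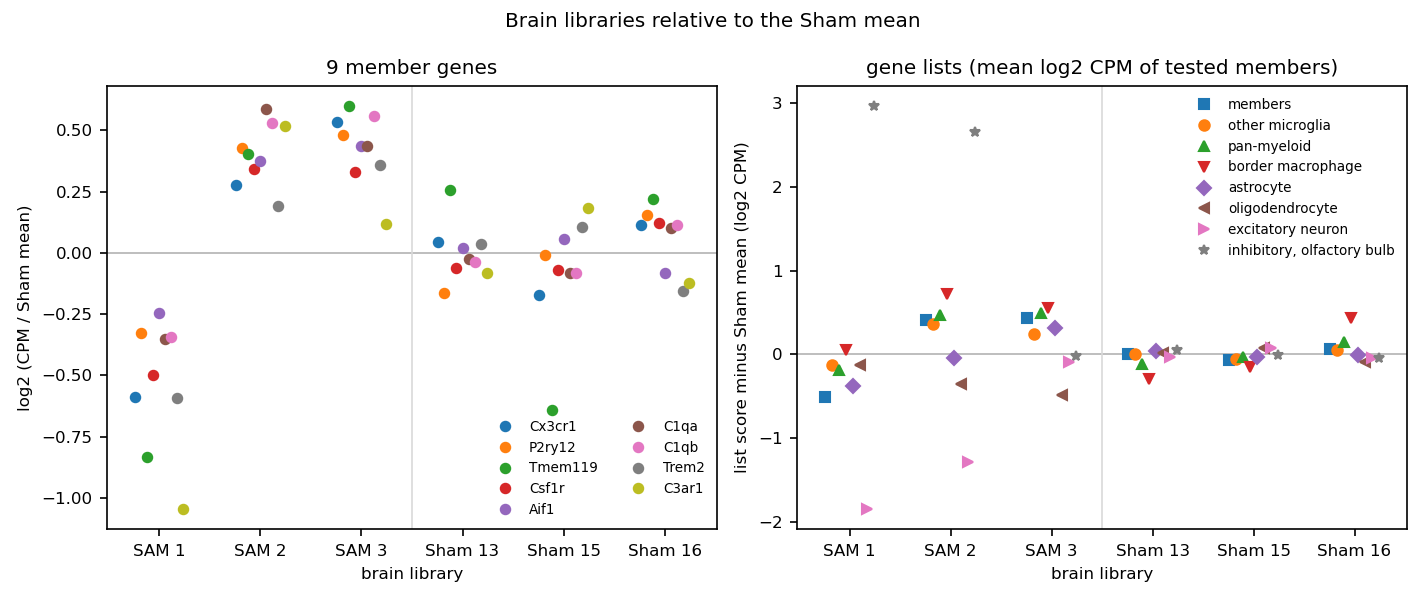
Brain libraries relative to the Sham mean on a log2 scale, with the 9 genes on the left and the mean log2 CPM of gene lists on the right, 1 point per gene or list and library. All 9 genes lie below 0 in SAM 1 and above 0 in SAM 2 and SAM 3, whereas inhibitory and olfactory bulb genes are high in SAM 1 and SAM 2 and near 0 in SAM 3.

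Several signs changed with 1 library left out, and edgeR called 0 of the 9 each time. Without SAM 1, all 9 log2 fold changes were positive, from 0.28 to 0.55 with a median of 0.41, and 6 had an unadjusted p under 0.05, as had 5.94% of all genes in that direction. Without SAM 2, 6 were positive and 3 negative, with a median of 0.07. Without SAM 3, 4 were positive and the median was -0.02, while 5889 of all genes were called. Without Sham 16, 7 were positive and 2 negative. P2ry12, Aif1, C1qa and C1qb kept a positive sign with each library left out in turn. With SAM 3 alone against the Sham libraries, all 9 were positive, from 0.12 to 0.60, 0 were called and 6 had an unadjusted p under 0.05 (4.78% of all genes), the lone library being assumed to vary like the Sham libraries. SAM 1 and SAM 2, which share the high inhibitory and low excitatory neuron levels, lay on opposite sides of Sham for all 9 genes. The part of neuronal make-up in these values was not tested.

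Wider lists of macrophage genes gave a mixed picture in brain, and edgeR called 0 genes in each of them. Of 27 pan-myeloid genes, 23 had positive log2 fold changes, with a median of 0.26. The lowest p values among them belonged to Cd68, a lysosomal glycoprotein of macrophages, at 2.55 ± 0.38 CPM in SAM and 1.43 ± 0.47 in Sham, and Cyba, a subunit of the phagocyte oxidase, at 7.24 ± 0.85 and 5.18 ± 0.79 (log2 fold changes 0.82 ± 0.29 and 0.48 ± 0.18, adjusted p = 0.228 and 0.229). By library, 14 of the 27 lay below every Sham library in SAM 1 (38.4% of all genes), and 21 and 22 lay above every one in SAM 2 (37.9%) and SAM 3 (27.7%). With SAM 3 alone against Sham, a setting chosen for these lists after seeing the data, 27 of 27 were positive with a median of 0.48. Of 19 tested genes on a list of other microglial genes, 9 were positive, with a median of -0.01. The lowest p values there belonged to Sall1, a transcription factor of microglia and of some neurons, and its relative Sall3, which is no microglial marker, with log2 fold changes of 2.19 ± 0.57 and 2.44 ± 0.65 (adjusted p = 0.227 for both). Sall1 stood at 211, 189 and 40.1 CPM in SAM 1, 2 and 3 and at 30.4 to 34.3 in Sham, so its estimate rested on SAM 1 and SAM 2. With SAM 3 alone the 2 estimates were 0.32 ± 0.12 and 0.26 ± 0.22, and 16 of the 19 genes were positive with a median of 0.26. With all 6 brain libraries in the fit, all 11 tested inhibitory and olfactory bulb genes were positive, with a median of 2.42. With SAM 3 alone their median was -0.12. The part of those neurons in the Sall1 and Sall3 values was not tested.

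Ligands and partners of the 9 genes had a median estimate near 0. Of 16 tested, 11 were positive with a median of 0.05, and 0 were called. Il34, the main neuronal ligand of CSF1R, and Csf1 had log2 fold changes of 0.00 ± 0.08 and 0.00 ± 0.15, and Cx3cl1, which encodes fractalkine, -0.10 ± 0.13. These 3 ligands were named after their values were seen. P2ry1, an ADP receptor, and Apoe, which encodes a lipoprotein bound by TREM2, had the lowest p values of the list, with 0.85 ± 0.25 and 0.30 ± 0.10 (adjusted p = 0.227 for both). Their estimates with SAM 3 alone were 0.36 ± 0.33 and 0.36 ± 0.10, and 13 of the 16 were positive with a median of 0.11. Of 15 complement genes, 13 were positive with a median of 0.47. Serping1, which encodes the C1 inhibitor, and C4a, a complement component, stood at 22.6 ± 4.58 against 10.3 ± 2.47 CPM and at 7.48 ± 1.17 against 4.14 ± 0.91 CPM, and did not pass (adjusted p = 0.227 for both). The complement count was again 13 positive with SAM 3 alone, with a median of 0.54.

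Among genes that activated microglia induce, 16 of 20 tested were positive with a median of 0.25, the lowest p values being those of Vim, an intermediate filament also of astrocytes and vessels, and B2m, the light chain of class I molecules (0.95 ± 0.18 and 0.42 ± 0.10, adjusted p = 0.227 for both). Of 10 inflammatory genes tested 6 were positive with a median of 0.10. Icam1, an adhesion molecule, and Socs3, an inhibitor of cytokine signalling, had log2 fold changes of 0.55 ± 0.16 and 0.95 ± 0.33 (adjusted p = 0.227 and 0.228). Against Sham, SAM 3 alone gave 14 of the 20 activated genes positive with a median of 0.28, and 5 of the 10 inflammatory genes with a median of 0.06.

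Markers of other brain cells also differed between the libraries. Sums are over the genes of a list found in the table, and signs over those tested. The 13 genes found of border and perivascular macrophages, which lie at the meninges and vessels, summed to 57.0 to 73.8 CPM in SAM and 36.0 to 62.2 in Sham. Of the 11 tested, 10 were positive with a median of 0.62, and Stab1, a scavenger receptor, and Dab2, an endocytic adaptor, had 0.54 ± 0.16 and 0.62 ± 0.23 (adjusted p = 0.227 and 0.234). Meninges and choroid plexus genes summed to 82.5 to 118 CPM in SAM and 31.4 to 58.4 in Sham, with 7 of 7 tested positive and a median of 1.29. The lowest p values among these belonged to Ttr, which encodes transthyretin and was at 0 to 0.182 CPM in Sham and 1.43 to 2.19 in SAM, and Dcn, which encodes decorin (log2 fold change 1.05 ± 0.19, adjusted p = 0.227 for both). Inhibitory and olfactory bulb genes summed to 719 to 3728 CPM in SAM and 784 to 862 in Sham, and forebrain excitatory genes to 2089 to 5767 and 4783 to 5635. Doc2g and Calb2 led the inhibitory list with 3.001 ± 0.77 and 3.93 ± 1.01, and Neurod6 and Tbr1 the excitatory list with -1.18 ± 0.45 and -0.88 ± 0.34. Oligodendrocyte genes had 1 of 12 positive, with a median of -0.37, led by Mal and Opalin (-0.52 ± 0.09 and -0.55 ± 0.11). Astrocyte genes had 6 of 11 positive, with a median of 0.04, led by Gfap and Slc1a3 (0.89 ± 0.29 and 0.19 ± 0.14). None of these 10 genes passed the test. With SAM 3 alone the median was 0.64 for border macrophage genes, 1.04 for meninges, -0.12 for inhibitory, -0.09 for excitatory, -0.51 for oligodendrocyte and 0.28 for astrocyte genes. Monocyte and neutrophil genes had 4 found members at 0 in all 6 brain libraries and 2 tested. The part of these other cells in the values of the 9 genes was not tested.

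The genes whose brain levels ran most closely with the mean of the 9 members were chosen by Pearson r over the 6 brain libraries, which share totals and, in SAM 1 and SAM 2, neuronal make-up. They were Slco2b1 (r = 0.994), an organic anion transporter, Lcp1 (0.992), an actin-bundling protein of blood cells, AABR07070238.1 (0.987), Laptm5 (0.983), a lysosomal membrane protein of blood cells, and Tgfb1 (0.982), a cytokine that microglia depend on.

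In spleen, where most of the genes were at their highest, SAM and Sham levels lay close together. edgeR called 0 of the 8 genes tested, as did DESeq2, and 1 had an unadjusted p under 0.05. The share of all 14530 genes called was 0%, with 2.13% higher and 1.76% lower at an unadjusted p under 0.05. Trem2, at 3 to 14 counts per library, did not pass the filter on low counts. Of the 8, 6 were positive with a median of 0.06, against 50.8% and 0.00 over all genes.

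C3ar1 was the spleen member with the lowest p. It stood at 3.31, 3.09 and 3.53 CPM in SAM 1, 3 and 5 and at 2.31, 2.28 and 2.23 in Sham 14, 15 and 17, so that the groups did not overlap. These levels rest on 58 to 61 counts in SAM and 30 to 47 in Sham. The log2 fold change was 0.54 ± 0.18, with an unadjusted p of 0.0174 and an adjusted p of 0.978 in edgeR, and it stayed between 0.49 and 0.59 with each library left out in turn. Cx3cr1 also did not overlap, at 7.25, 6.77 and 8.50 CPM against 6.27, 6.74 and 6.24, though SAM 3 and Sham 15 all but touched. These 2 of 8 stand beside 4.47% of all genes with every SAM library above every Sham library, 4.74% with every one below and 9.22% with either.

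The other spleen members varied between libraries of both groups. C1qa stood at 574, 652 and 365 CPM in SAM and at 651, 534 and 347 in Sham, with SAM 5 and Sham 17 lowest. C1qb was also lowest in SAM 5 and Sham 17, at 310 and 303 CPM. Red pulp macrophage genes, which mark the iron-recycling macrophages of spleen, were also lowest in those 2 libraries, at 1902 and 1941 summed CPM against 2434 to 2858 in the others. Csf1r had the most precise estimate, with levels of 411 to 509 CPM in SAM and 427 to 465 in Sham, a log2 fold change of 0.01 ± 0.09 with a 95% interval from -0.19 to 0.21. Tmem119 had the one sizeable negative estimate, -0.17 ± 0.12.

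In thymus the estimates leaned the other way. edgeR called 0 of the 9 genes, as did DESeq2, and 1 had an unadjusted p under 0.05. Of all 15036 genes, 0.02% were called, with 1.65% higher and 4.41% lower at an unadjusted p under 0.05. The log2 fold changes were negative for 7 of 9, with a median of -0.11, against a median of 0.00 over all genes, of which 49.5% were positive. SAM 1 lay below every Sham library for 7 of the 9 (27.6% of genes), and without it 6 were negative with a median of -0.01.

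In thymus C3ar1 was the one member whose groups did not overlap, here with SAM lower. It stood at 0.678, 0.617 and 0.443 CPM in SAM 1, 3 and 5 and at 1.47, 1.29 and 1.27 in Sham 14, 15 and 17. Behind these lie 11, 11 and 7 counts in SAM and 29, 24 and 25 in Sham, so the values are low. Every SAM library was below every Sham library, as for 6.96% of all genes, with 4.97% above and 11.9% in either position. The log2 fold change was -1.20 ± 0.30, with an unadjusted p of 0.00342 and an adjusted p of 0.408 in edgeR, and it ranged from -1.32 to -1.05 with each library left out in turn.

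Cx3cr1 and P2ry12 had the next largest estimates in thymus, -0.38 ± 0.21 and -0.37 ± 0.23. Cx3cr1 stood at 3.70, 5.38 and 4.62 CPM in SAM and 4.86, 7.00 and 6.05 in Sham, and the groups overlapped. The C1q chains, Aif1 and Csf1r lay between -0.12 and -0.08, and Tmem119 and Trem2 at 0.12 ± 0.20 and 0.05 ± 0.36. Pan-myeloid genes leaned alike, with 21 of 27 negative, a median of -0.12 and 0 called, and 22 of them lay below every Sham library in SAM 1 (27.6% of all genes).

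In liver 5 of the 9 genes passed the filter on low counts. Cx3cr1 (1 to 9 counts per library), P2ry12 (1 to 23), Tmem119 (1 to 21) and Trem2 (0 to 5) did not, and their levels cannot be ranked between the groups at this depth. edgeR called 0 of the 5, as did DESeq2, 0 had an unadjusted p under 0.05, and 0% of all 12130 genes were called, with 1.71% higher and 0.816% lower at an unadjusted p under 0.05.

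The groups overlapped in liver for all 5 genes tested, whereas 5.19% of all genes lay above and 5.63% below, 10.8% in all. Csf1r stood at 17.7, 89.4 and 35.5 CPM in SAM 1, 2 and 3 and at 19.4, 44.7 and 59.7 in Sham 13, 14 and 15. SAM 2 was the highest of the 6, and SAM 1 and Sham 13 were the lowest. Its log2 fold change of 0.21 ± 0.60 carries a 95% interval from 0.435-fold to 3.08-fold. C1qa stood at 46.3, 98.4 and 58.3 CPM in SAM and at 34.6, 87.1 and 87.9 in Sham, and C3ar1 at 0.183, 2.67 and 0.666 against 0.443, 0.832 and 2.12.

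SAM 2 lay above every Sham library for all 5 tested members (26.1% of genes). Kupffer cell genes summed to 396, 884 and 519 CPM in SAM 1, 2 and 3 and to 324, 595 and 630 in Sham 13, 14 and 15, with SAM 2 the highest here too. All 5 estimates were positive without SAM 1, the library with 17.8% mitochondrial counts, and also without Sham 15. All 5 were negative without SAM 2, and 4 of 5 without Sham 13. With every library in the fit, the log2 fold changes ran from -0.13 ± 0.42 for C1qb to 0.44 ± 0.40 for Aif1. The part of Kupffer cell content in the liver values was not tested.

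**Figure D4:**
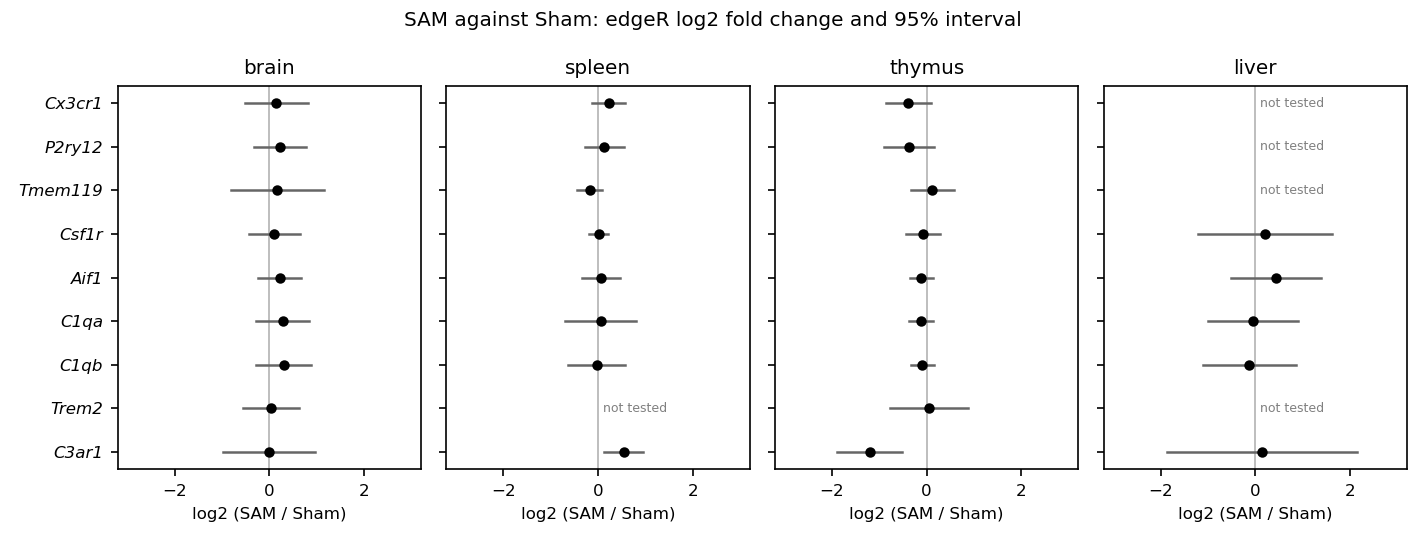
Log2 fold change of SAM over Sham for each gene in the 4 tissues, with 95% intervals from edgeR, 3 libraries per group. Intervals span 0 for every gene and tissue tested except C3ar1 in spleen, above 0, and C3ar1 in thymus, below 0.

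A fit over all 24 libraries with 3 interaction terms asked whether the SAM and Sham levels differed by a like amount in each tissue. Of the 9 genes 0 were called, where 0.0113% of all 17623 genes were, and 0 had an unadjusted p under 0.05. The lowest p belonged to Cx3cr1 (0.148, adjusted p = 0.663), followed by C3ar1 (0.200, adjusted p = 0.693). Between thymus and spleen alone, a contrast chosen after the C3ar1 values were seen, its log2 fold changes differed by -1.74 ± 0.31 over 12 libraries. The unadjusted p was 8.84e-05, rank 4 of 15781 genes, and the adjusted p was 0.349, so the difference did not pass. edgeR called 0 genes in that contrast, with 4% at an unadjusted p under 0.05. Cx3cr1 differed in the same direction, by -0.61 ± 0.25 (unadjusted p = 0.0331, adjusted p = 0.9999).

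Over all 24 libraries each member had close companions in level, ranked by Pearson r of log2 CPM among 15218 genes in libraries of 4 tissues that differ for most genes. Aif1 ran closest with Fcer1g (0.993), which encodes a signalling chain of Fc receptors, and Cnr2 (0.986), the cannabinoid receptor of immune cells. C1qa and C1qb both ran with C1qc (0.984 and 0.986), the third C1q chain, and then with Fcgr1a (0.973) and Fcna (0.979), an Fc receptor and a ficolin. Csf1r ran with Rasgrp3 (0.967) and Anxa3 (0.965), and Trem2 with Fam69b (0.966) and Kirrel3 (0.965), the latter an adhesion molecule of neurons. Cx3cr1 had Sidt1 (0.9748) and Pdlim4 (0.9746), P2ry12 had Pdgfb (0.966) and Acap2 (0.964), and Tmem119 had Osbpl5 (0.942) and Anxa7 (0.937). C3ar1 had the loosest companions, Maf (0.841), a transcription factor of macrophages and lymphocytes, and Ptgs1 (0.838).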

How the data were processed

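Messenger RNA of 24 rat libraries was read as 1 table of whole-number counts per gene that the authors deposited, not normalized. STAR 2.2.1 and the genome build rn6 are named in the submitters' processing notes with no role. Which program did the counting, with what strand setting and annotation, is not given in the sources used here. Libraries were made with a stranded mRNA kit, per the labels' protocols. Each column name gives a tissue and a number, which fixed its sample, and 47 rows have no gene symbol.

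Each tissue was tested alone with edgeR 4.0.16 in R 4.3.3. Low genes were removed with filterByExpr (minimum count 10), TMM set the library scaling, and p-values of the robust quasi-likelihood test were adjusted by Benjamini-Hochberg at 0.05. Sham tissues were compared in 1 fit of 12 libraries. DESeq2 1.42.0, RLE scaling, other filters and left-out libraries were alternatives. Log2 CPM for lists and correlations used a prior count of 2, and correlations were ranked over named genes averaging 1 CPM or more. A list score is the mean log2 CPM of tested members.

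The members and lists were chosen with earlier results of these data known. All 9 members are named, and from each list whose genes are described the 2 with the lowest p in brain, besides exceptions stated in the text. The rule covered every list, but genes of the remaining cell type lists are not named. Chi-square per degree of freedom between replicates was 5.95 to 193, so no library was counted as a copy. On counts simulated for each comparison, edgeR recovered 66.7% of genes changed 2-fold in brain (14970 genes run), 76.1% in spleen (14407), 70.1% in thymus (14899) and 19.7% in liver (12001). Of genes changed 1.5-fold it recovered 6.15% in brain, 50.7% in spleen, 29.9% in thymus and 0% in liver. Each gene was drawn independently, so a shift shared by many genes of a library, as in brain SAM 1 and SAM 2, was not simulated. Of 292 list symbols 279 were found.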

Additional observations from a re-analysis of the deposited data

Results flagged for a closer look

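C3ar1, the receptor for complement C3a, had estimates of opposite sign in spleen and thymus. In spleen every SAM library lay above every Sham library (4.47% of all genes), with a log2 fold change of 0.54. In thymus every SAM library lay below every Sham library (6.96% of all genes), with -1.20. Neither passed the edgeR test over all genes in its own tissue (adjusted p = 0.978 and 0.408). The difference between the tissues, tested as an interaction over 12 libraries after these values were seen, had an adjusted p of 0.349 and ranged from -1.85 to -1.59 with each library left out in turn. Thymus levels rest on 7 to 29 counts per library.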

How the results depend on the processing

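Of the 9 members 0 were called in brain, spleen, thymus and liver under every alternative run, DESeq2 included. The number of all genes called moved far more, and the cause was not tested. In brain (0 called) it was 503 with DESeq2, 580 in a fit over all 24 libraries, 2 with SAM 3 alone against Sham, and 0 to 5889 when single libraries were left out, the highest without SAM 3. In spleen (0 called) it was 7 with DESeq2, 1 with no filter on low counts and 0 to 1 with a library left out, the highest without SAM 5. In thymus (3 called) it was 100 with DESeq2, 43 with no filter, 0 without the robust option (chosen after seeing the data) and 0 to 1 with a library left out. In liver (0 called) it was 2 with DESeq2, 1 with no filter and 3 in the fit over all 24 libraries. The interaction over 24 libraries called 2 genes, 1 without brain SAM 1 and SAM 2, and 5 without liver SAM 1 (chosen after seeing the data), with 0 members each time.

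Small member estimates changed sign with a library left out, none of them called. The ranges in brain were -0.10 to 0.41 for Cx3cr1, -0.10 to 0.50 for Tmem119, -0.026 to 0.34 for Csf1r, -0.15 to 0.28 for Trem2 and -0.39 to 0.35 for C3ar1, which was also 0.12 with SAM 3 alone. In spleen they were -0.033 to 0.27 for P2ry12, -0.083 to 0.074 for Csf1r, -0.090 to 0.21 for Aif1, -0.16 to 0.27 for C1qa and -0.21 to 0.18 for C1qb. Thymus gave -0.18 to 0.083 for Csf1r, -0.16 to 9.36e-04 for C1qb and -0.20 to 0.32 for Trem2. Liver gave -0.63 to 0.60 for Csf1r, -0.093 to 0.69 for Aif1, -0.42 to 0.17 for C1qa, -0.48 to 0.14 for C1qb and -1.31 to 0.93 for C3ar1. The signs of C3ar1 in spleen and thymus held under every alternative run.

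Between Sham tissues, library totals alone (chosen after seeing the data) turned Csf1r for brain minus liver (1.02), C3ar1 for spleen minus liver (0.94), and Csf1r (0.57), Aif1 (1.43), C1qa (0.82), C1qb (0.76) and C3ar1 (0.18) for thymus minus liver. C3ar1 for brain minus thymus (-0.01) was 0.13 with RLE scaling, 0.14 with DESeq2, and -0.10 to 0.067 with a library left out, and for spleen minus liver it ranged from -1.01 to 0.17. Members called between thymus and liver ranged from 4 to 9. Over all alternatives, 804 Sham values kept direction and call, 32 lost the call, 14 gained one and 14 changed direction.

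The labels do not say that equal numbers in different tissues are one rat, and SAM and Sham share no number. Same-numbered libraries deviated together at r = -0.01 to 0.165 over 25 pairs, 2 of them over 0.1, with a median of 0.036. Pairs of different numbers, also within a group and between tissues, gave r = -0.224 to 0.117 over 83 pairs. Of those, 1 was over 0.1, and their median was -0.015. With the number as a replicate block, C3ar1 for brain minus thymus was 0.40, members called between Sham tissues were 7 (brain and spleen), 7 (brain and thymus), 8 (brain and liver), 7 (spleen and thymus), 7 (spleen and liver) and 9 (thymus and liver), and the interaction called 0 members. The thymus minus spleen difference of C3ar1 was -1.74 under the block (adjusted p = 0.613).

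Depth limits C3ar1 in brain and thymus and the 4 untested genes in liver, where 0 to 23 counts per library cannot show a difference of moderate size. Liver is the least sensitive comparison: in simulation edgeR recovered 0% of genes changed 1.5-fold and 19.7% of those changed 2-fold. In brain it recovered 6.15% of genes changed 1.5-fold, so a change of that size in the members would mostly be missed.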

Other observations

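P2rx4, an ATP-gated channel of macrophages and microglia on the list of partners, was lower in SAM in both lymphoid organs. In spleen its SAM mean was 39.7 ± 3.12 CPM and its Sham mean 67.3 ± 7.30 (SD, n = 3), and the log2 fold change was -0.76 ± 0.10 (edgeR unadjusted p = 3.57e-05, adjusted p = 0.519). In thymus the means were 22.4 ± 2.62 and 36.1 ± 4.13 CPM, with a log2 fold change of -0.69 ± 0.12 (unadjusted p = 2.87e-04, adjusted p = 0.167). In both organs every SAM library lay below every Sham library, as for 4.74% of all genes tested in spleen and 6.96% in thymus. In neither organ did the difference pass the test. The gene was chosen after its values were seen.

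Spp1, which encodes osteopontin and is induced in activated microglia, had a mean of 55.4 ± 49.998 CPM in SAM brain and 0.897 ± 0.59 in Sham brain. SAM 1, 2 and 3 stood at 102, 62.4 and 2.27 CPM, and Sham 13, 15 and 16 at 0.223, 1.33 and 1.13. SAM 1 and SAM 2 are the libraries with high inhibitory and olfactory bulb genes, and in SAM 1 all 9 members lay below every Sham library. The part of the differing cell make-up in the Spp1 values was not tested. Every SAM library lay above every Sham library, as for 11.6% of all genes tested in brain, and the log2 fold change was 5.95 ± 1.39 (edgeR adjusted p = 0.227). With SAM 3 alone against Sham, chosen after seeing the data, it was 1.34 ± 0.73 (adjusted p = 0.762). In spleen the means were 1.12 ± 0.15 and 2.55 ± 0.31 CPM, with a log2 fold change of -1.17 ± 0.24 (adjusted p = 0.978). It too was chosen after its values were seen.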
